A study of Drosophila melanogaster with 13 samples.

Results

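Core sites are the places in the Drosophila genome where a peak was called in all 6 Hox protein binding profiles of this study, including that of a Ubx protein whose DNA contacts had been mutated. They were chosen by overlap of called peaks: a peak of the Ubx profile of Experiment 2, the reference list, was a core site when it had a partner in each of the 5 other lists, where partner peaks each cover at least 5% of the other. Of the 4218 peaks of the reference list, 1358 (32.2%) met this rule.

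The profiles came from Kc167 cells, a female line derived from Drosophila embryos that does not make Hox proteins of its own. The Hox proteins were fused to GFP, expressed transiently from plasmids under the inducible metallothionein promoter, and their binding was mapped by ChIP-Seq through the GFP tag, in cells sorted for a similar range of GFP fluorescence. Experiment 1 held Ubx, Abd-A and Abd-B, with 2 replicates each and 36 bp reads. Experiment 2, with 100 bp reads, held Ubx (1 replicate), mutant Ubx with 5 changed homeodomain residues (2 replicates) and Ubx+Hth (2 replicates), in which the same construct also made the cofactor Hth. All 6 profiles were called against the input chromatin of Experiment 1, so the lists share 1 control, and every condition is transfected, induced cells of 1 line with no Hox-free control profile used here. The part of open chromatin or of the shared input in these sites was not tested.

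Hox proteins are homeodomain transcription factors that give segments along the body axis their identity. Ubx, Abd-A and Abd-B act in successive posterior regions of the fly, and their homeodomains alone recognise similar short AT-rich sequences. Exd and Hth are homeodomain proteins of the TALE class that bind DNA together with Hox proteins; in Kc167 cells Exd stays in the cytoplasm unless Hth is supplied.

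Each profile was deposited as 1 list of peaks per q-value, called after the replicates had been combined. There is therefore no replicate error for any value below, and no test was run. The intervals given with shares (Wilson, 95%) describe counting error among peaks and nothing else, and read depth cannot be taken from the lists. The lists at a q-value of 1e-10, called stringent here, held 4830 peaks for Ubx of Experiment 1, 5656 for Abd-A, 9681 for Abd-B, 4218 for Ubx of Experiment 2, 1793 for mutant Ubx and 7971 for Ubx+Hth. Peaks carry a score, which is the q-value on the −log10 scale and depends on the library, so ranks were taken within a list. The percentile rank is 100 times the rank divided by the length of the list, and the smallest values belong to the highest scores.

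The mutant Ubx list decided most of the membership. A partner was found for 98.2% of the reference peaks in the Ubx+Hth list, for 96.4% in the Abd-B list, for 92.4% in the Abd-A list and for 85.3% in the Ubx list of Experiment 1. For mutant Ubx the share was 34.1% (1440 peaks). These shares are what the rule itself used. A further 2120 reference peaks had a partner in every list but that of the mutant, while 29 lacked only Ubx of Experiment 1, 7 only Abd-A and 7 only Abd-B. Without the mutant list in the rule, 3478 peaks would have qualified. The remaining 82 peaks with a mutant partner missed 1 or more of the other lists, and 68 of them lacked Ubx of Experiment 1.

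Seen from the other side, partners of core sites made up most of the mutant list and a small part of the longer lists. They were 1515 of the 1793 mutant peaks (84.5%; interval 82.7 to 86.1), 1371 Ubx peaks of Experiment 1 (28.4%), 1304 Abd-A peaks (23.1%), 1307 Ubx+Hth peaks (16.4%) and 1253 Abd-B peaks (12.9%). At the top of the lists the core made up a larger part than over the whole list, except in mutant Ubx. Among the 100 highest-scoring peaks, 96 were core or partners of core sites in the reference list, 93 in Ubx of Experiment 1, 93 in Abd-A, 78 in Ubx+Hth, 69 in mutant Ubx and 52 in Abd-B.

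Core sites stood high in every list except that of the mutant. Their median percentile rank was 14.0 in Ubx+Hth, 15.9 in Abd-B, 16.3 in Abd-A, 19.5 in Ubx of Experiment 1 and 21.9 in the reference list, where the median over a whole list lies at the middle by construction. In the mutant list the median was 47.2, next to 50.3 for all mutant peaks. As 84.5% of that list was core, both medians rest largely on the same peaks. The 2120 peaks lacking only a mutant partner, the class most like the core, had median percentile ranks of 26.0 in Abd-B, 30.4 in Ubx+Hth, 36.7 in Abd-A, 48.0 in Ubx of Experiment 1 and 55.2 in the reference list. Core membership followed the reference score in steps. It was 87.6% (interval 84.2 to 90.5) in the 10% of reference peaks with the highest scores, 64.6% in the next 10%, 25.2% in the fifth and 5.69% (3.85 to 8.32) in the lowest. All of these values passed through the q-value that made the lists, and they describe the core without supporting it.

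Peaks at core sites were also wider. Their median width was 1634 bp in Abd-B against 598 bp for all Abd-B peaks, 1160.5 bp against 483 bp in Ubx+Hth, 1102 bp against 563 bp in Abd-A, 861 bp against 493 bp in Ubx of Experiment 1 and 754.5 bp against 464 bp in the reference list. The mutant peaks at core sites had a median of 324 bp against 302 bp for the whole mutant list. A peak that was the partner of several core sites entered the core median repeatedly, and was not repeated in the whole-list median. For the peaks lacking only a mutant partner the medians were 1066 bp in Abd-B, 730.5 bp in Ubx+Hth, 712.5 bp in Abd-A, 524.5 bp in Ubx of Experiment 1 and 436 bp in the reference list. Width and score are not separate measures, with Spearman's rho between them from 0.501 in Abd-A to 0.624 in Abd-B over the 1358 core sites. The widths depend on how much overlap is asked for. Under a minimum reciprocal overlap of 50%, which removes pairs of unequal width, 248 sites were left, with medians of 827 bp in Abd-B, 734 bp in Abd-A, 754 bp in Ubx+Hth and 437 bp in mutant Ubx, and the median percentile rank in Abd-B became 24.3.

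**Figure D1:**
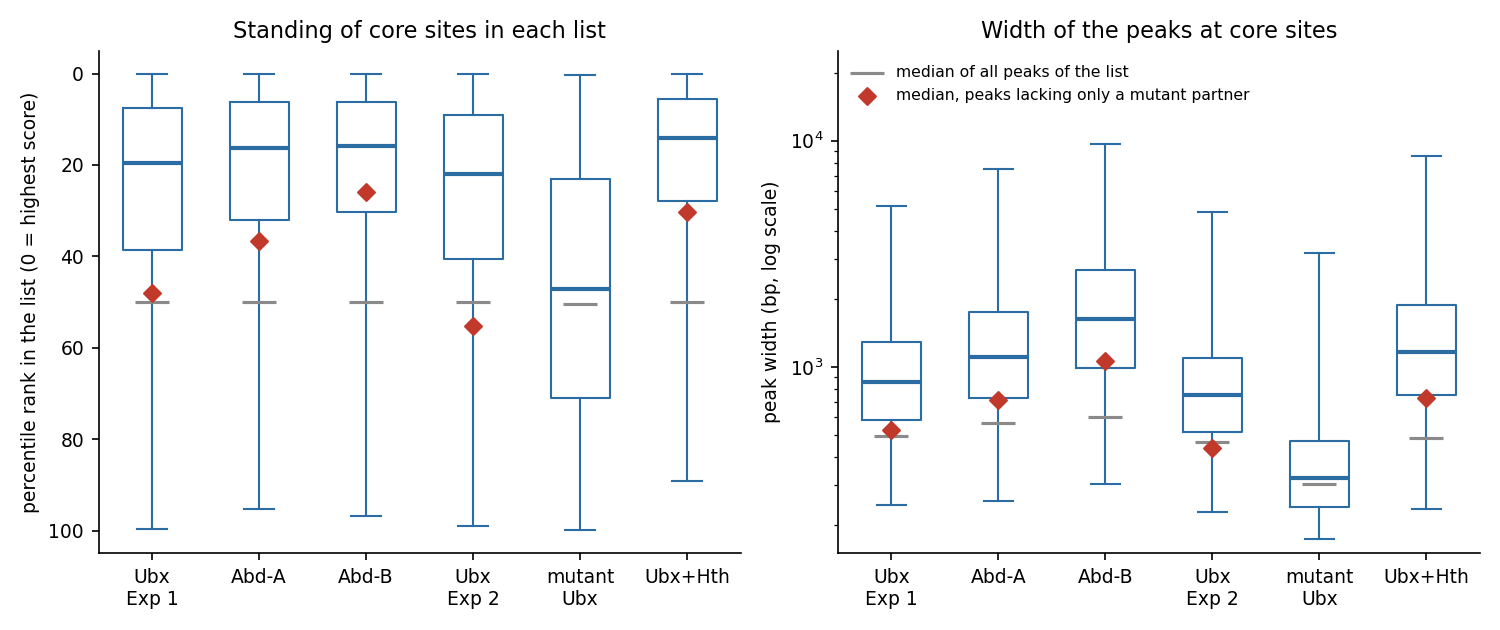
Percentile rank (left, 0 at the top for the highest score) and peak width in bp on a log axis (right) at the 1358 core sites in each of the 6 lists. Boxes span the middle 50% of sites with the median as a thick line, whiskers reach the lowest and highest values, grey dashes are medians of all peaks of a list, and red diamonds are medians of the 2120 reference peaks lacking only a mutant partner. The mutant box is centred near the middle of its list (47.2) while the other medians lie between 14.0 and 21.9.

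A site high in one list was not always high in the others. There were 62 core sites in the highest-scoring 10% of all 6 lists, and 557 that reached it in none. The difference between a site's best and worst percentile rank had a median of 42.6, and of 21.9 when the mutant was left out. The worst rank was in the mutant list for 860 of the 1358 sites, which the rule largely fixes, since core partners fill most of that list and so spread over all of its ranks. The best rank was in Abd-B for 422 sites, in Ubx+Hth for 352 and in Abd-A for 238.

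The order of core sites was most alike in Ubx of Experiment 1 and Abd-A, with a Spearman's rho of 0.874 over the 1358 scores. The Ubx lists of both experiments gave 0.816, Abd-A and the reference list 0.787, and Ubx+Hth gave 0.767 with Abd-A, 0.755 with Ubx of Experiment 1 and 0.740 with the reference list. Abd-B gave from 0.456 with the reference list to 0.574 with Abd-A. Mutant Ubx gave 0.506 with the reference list, 0.498 with Ubx of Experiment 1, 0.437 with Abd-A and 0.248 with Abd-B, the lowest of the 15 pairs. These coefficients are descriptions over sites that share an input and, within an experiment, a harvest of cells. Some sites also share a partner peak. The highest value joins different proteins of Experiment 1, above that of the same protein across experiments, so protein and experiment cannot be told apart in this order.

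**Figure D2:**
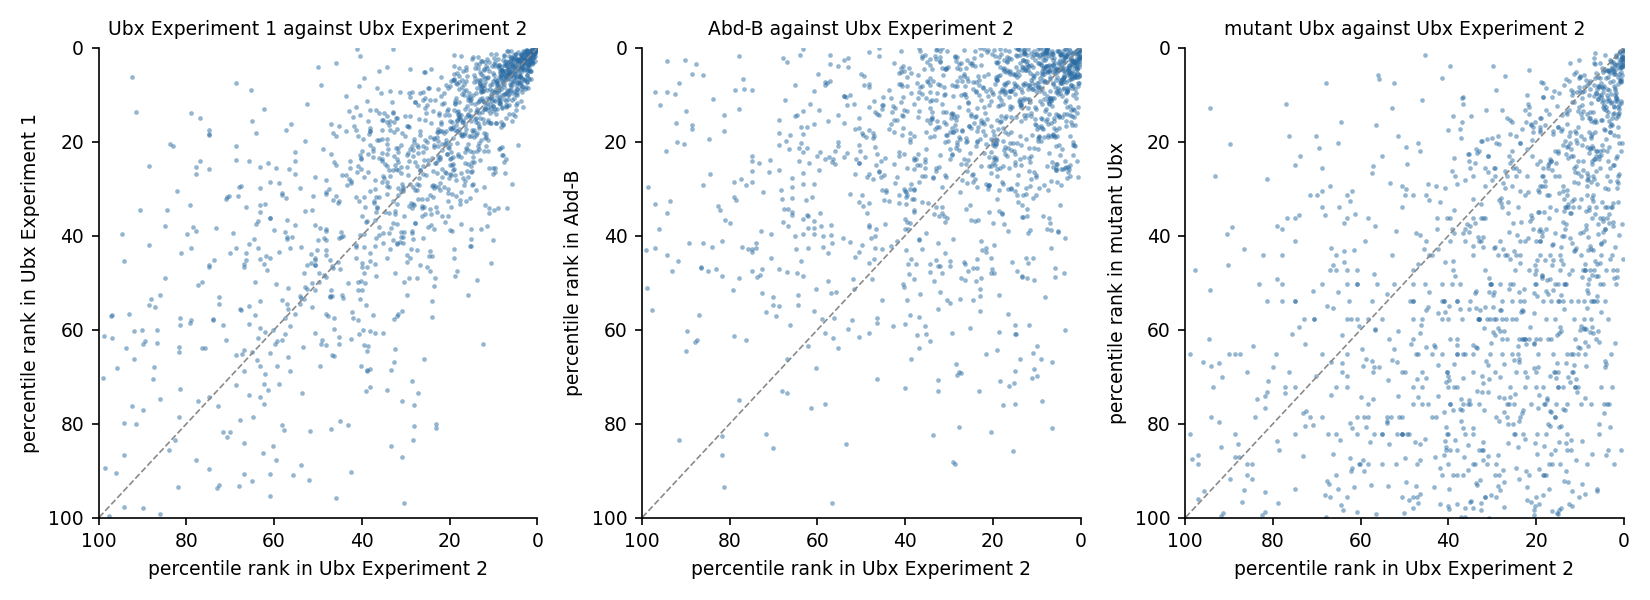
Percentile rank of each core site in Ubx of Experiment 1, Abd-B and mutant Ubx (vertical axes) against its percentile rank in Ubx of Experiment 2 (horizontal axes), with 0, the highest score, at the upper right and 1 point per site. The dashed line marks equal rank. Points follow the line most closely for Ubx of Experiment 1 (rho 0.816) and scatter widely on both sides of it for Abd-B (rho 0.456). They lie mostly below it for mutant Ubx, where 1059 of 1358 sites had the lower standing.

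The sites with the best worst-case rank were near the top everywhere. A site on X, from 12647489 to 12650790 of BDGP release 5, had scores of 267 in Ubx of Experiment 1 (rank 13), 236 in Abd-A (rank 20), 302 in Abd-B (rank 167), 295 in the reference list (rank 5), 124 in mutant Ubx (rank 12) and 325 in Ubx+Hth (rank 14.5). Every one of these ranks lies in the first 1.73% of its list. A second X site lay within 20 kb of it, from 12627731 to 12630621, and ranked 3 in Ubx of Experiment 1, 3 in Abd-A, 172 in Abd-B, 4 in the reference list, 31 in mutant Ubx and 8.5 in Ubx+Hth. The other sites of this kind were on 3R from 4635870 to 4637935 (rank 15 in the reference list and 33 in the mutant), on X from 13782578 to 13785454 (ranks 6 and 41) and on 2R from 7089618 to 7092997 (ranks 7 and 44). The X site at 13782578 also had the highest Ubx+Hth score of the core, 403.

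One site led the reference list and, among core sites, the mutant list. It lay on 3R from 12059950 to 12063606, with a score of 359 in the reference list (rank 1), 167 in mutant Ubx (rank 6), 330 in Ubx of Experiment 1 (rank 2), 276 in Abd-A (rank 6), 259 in Abd-B (rank 333) and 315 in Ubx+Hth (rank 29). The peak was 3657 bp wide in the reference list and its strongest mutant partner, 1425 bp. Ubx of Experiment 1 and Abd-A had the same leading site, on 2L from 12010080 to 12012803, with scores of 409 and 410. That site ranked 3 in the reference list, 10 in Ubx+Hth, 51 in mutant Ubx and 65 in Abd-B.

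The highest Abd-B peak of all was at a core site of middling standing elsewhere. The site, on 3R from 16085610 to 16086360, had an Abd-B score of 483 (rank 1) and a Ubx+Hth score of 296 (rank 47), but ranked 846 in Abd-A, 1200.5 in Ubx of Experiment 1, 1935.5 in the reference list and 1357.5 in mutant Ubx. The Abd-B peak was 4227 bp wide, against 751 bp in the reference list and 393 bp in the mutant.

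Mutant and unmutated Ubx of Experiment 2 differed most in standing at sites strong for one and marginal for the other. The median difference in percentile rank was 17.1 toward lower standing in the mutant, and 299 sites (22.0%) stood higher in the mutant list. Both values follow largely from the rule, as partners of core sites were 84.5% of the mutant list and core sites 32.2% of the reference list. At the extreme, a site on 2R from 8146182 to 8147022 had percentile ranks of 6.14 in the reference list and 94.4 in the mutant, where its score was 14.0. Next came X from 15761531 to 15762340 (6.16 and 93.8) and 2L from 5292220 to 5293910 (2.13 and 88.5). In the opposite direction, 2L from 850461 to 851091 stood at 94.2 in the reference list with a score of 15.3 and at 12.8 in the mutant with a score of 44.7. It was followed by X from 19561080 to 19561437 (89.8 and 20.5) and 3L from 9376584 to 9377181 (93.2 and 27.3). A rank compares a peak with its own list, so neither a higher nor a lower standing in the mutant list says how much signal is there.

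The mutant peak usually lay inside the wider reference peak. At 78.7% of core sites the strongest mutant peak was wholly contained in the reference peak, of which it covered a median of 45.7%. Its width was a median of 0.473 times that of the reference peak. Abd-B peaks did the reverse and held the whole reference peak at 79.6% of sites, as did Ubx+Hth at 75.6% and Abd-A at 63.2%. The centres of the peaks were close at most sites, and least so in Abd-B. The Abd-B centre lay inside the reference peak at 68.7% of sites, against 84.6% in Ubx+Hth to 97.9% in mutant Ubx for the other lists. The median distance from the reference centre was 61.5 bp for Ubx of Experiment 1, 82.5 bp for Abd-A, 86 bp for Ubx+Hth, 99.5 bp for mutant Ubx and 199 bp for Abd-B, and the signed medians ranged from -5.5 to 4.5 bp. At 1339 sites (98.6%) the strongest peaks of all 6 lists shared at least 1 bp, and the shared stretch had a median of 303 bp.

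Some wide sites held several mutant peaks. There was 1 mutant partner at 1224 sites, 2 at 113, 3 at 17, 4 at 3 and 5 at 1, and the median reference width rose along this order from 695.5 bp with 1 partner to 1553 bp with 2 and 2537 bp with 3. The site with 5 was core_0012 on 2L, from 478689 to 481929, where the mutant peaks had scores of 17.2, 45.3, 20.8, 29.1 and 51.8. The widest core site of the reference list was on 3R from 19156910 to 19161773 (4864 bp), with a mutant peak of 434 bp. The narrowest was on 2R from 14742562 to 14742790 (229 bp), with a mutant peak of 292 bp that ranked 231 in its list.

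Core sites were spread over the chromosome arms much as the reference list was. The share of core sites on each arm was 25.6% for 3R, 21.8% for X, 18.5% for 2R, 17.7% for 3L, 16.1% for 2L and 0.295% for chromosome 4, where all reference peaks gave 25.1%, 19.5%, 19.2%, 19.3%, 16.1% and 0.877%. X and chromosome 4 departed most. The mutant list, made up mostly of partners of core sites, had 22.9% of its peaks on X and 0.558% on chromosome 4. On X, 296 of 821 reference peaks were core (36.1%; interval 32.8 to 39.4), and on chromosome 4, 4 of 37 (10.8%; 4.29 to 24.7), against 32.2% of the whole list. On the other arms the share ran from 29.7% on 3L (26.6 to 32.9) to 32.8% on 3R (30.0 to 35.7). Since the core share followed score, the arms were also compared within score classes. Among the higher-scoring 50% of reference peaks, 55.6% were core on X, 56.7% on 2L and 3 of 17 on chromosome 4, against 52.8% over all arms. Among the lower-scoring 50% the X share was 14.8% (11.6 to 18.6), against 11.7%.

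The 4 core sites on chromosome 4 showed the low end of the mutant list. Their mutant scores were 26.5, 16.7, 17.2 and 12.7, and 3 of them had a percentile rank above 80 in the mutant list. The median over the 4 was 83.1, beside 44.1 to 53.8 on the other arms. In the other lists their medians were 21.8 in Abd-B, 22.9 in Ubx of Experiment 1, 26.1 in the reference list, 26.2 in Abd-A and 26.9 in Ubx+Hth. On 3L, the arm with the second lowest core share, core sites stood highest in the reference list, with a median of 17.6.

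**Figure D3:**
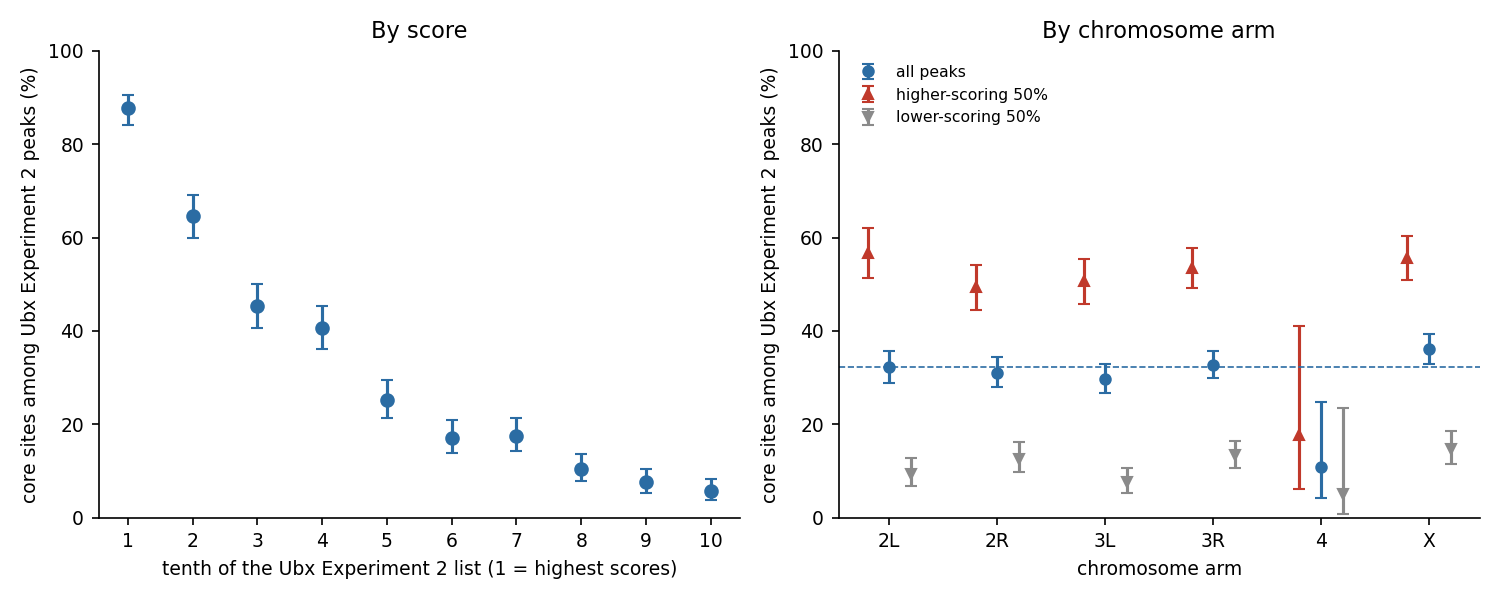
Percentage of reference peaks that are core sites, by 10% steps of the reference score (left) and by chromosome arm (right, with all peaks in blue and the higher- and lower-scoring 50% of the reference list in red and grey). Error bars are Wilson 95% intervals and the dashed line is the share over all 4218 peaks (32.2%). The share fell from 87.6% to 5.69% with score, and the arms other than chromosome 4 lie between 29.7% and 36.1%.

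Core sites lay closer to other Ubx peaks than the remaining peaks did. The nearest reference peak of any class was at a median of 2244.5 bp from a core site and 3791 bp from a peak lacking only a mutant partner. Within the higher-scoring 50% of the list, these distances were 2063 and 3570 bp. A reference peak lay within 5 kb of 66.4% of core sites (interval 63.9 to 68.9) and of 56.1% of the peaks lacking only a mutant partner (54.0 to 58.2). Within 10 kb the shares were 79.4% and 72.5%. The rule did not use distance, but wider peaks leave shorter gaps, and the part of width in this difference was not tested.

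The neighbours of core sites were also more often core. Along the chromosome, the next reference peak was core after 37.8% of core sites (interval 35.3 to 40.4) and after 29.5% of other peaks (27.9 to 31.2). For neighbours within 10 kb the shares were 43.4% and 31.0%, and where both lay in the higher-scoring 50%, 66.2% (61.5 to 70.7) and 54.9% (48.8 to 60.9). Where both lay in the lower-scoring 50% they were 14.5% (7.83 to 25.3) and 11.7% (9.16 to 14.8), with overlapping intervals. Beyond 10 kb they were 30.3% (26.7 to 34.1) and 28.0% (25.7 to 30.4), and 50% and 50.4% where both lay in the higher-scoring 50%. Neighbours can owe their membership to the same wide partner. In Abd-B, 94 peaks were the partner of more than 1 core site, in Abd-A 60, in Ubx+Hth 55 and in Ubx of Experiment 1 30. In the mutant list there were 3. The widest Abd-B peak of this kind, on X from 12555168 to 12564848, spanned 5 core sites.

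Linked by gaps of at most 10 kb, 687 core sites (50.6%; interval 47.9 to 53.2) fell into 263 clusters, and 671 stood alone. There were 176 clusters of 2 sites, 45 of 3, 25 of 4 and 17 of 5 or more, which held 100 sites. The median gap between neighbouring core sites was 31097.5 bp, with the middle 50% of gaps between 5572 and 108524 bp. In the whole reference list, linked in the same way, 3146 of 4218 peaks (74.6%) were grouped and 1072 stood alone. The median gap in that list was 9036 bp. That list contains the core sites and is denser, which by itself shortens gaps and favours grouping. These values therefore do not compare the clustering of core sites with that of other peaks. X had the most clustered core sites, 60.5% (interval 54.8 to 65.9), and 2R had 44.2% (38.2 to 50.4). X also had the shortest median gap between core sites, 24600 bp. The part of peak density on each arm in these shares was not tested. None of the 4 sites on chromosome 4 was in a cluster. The longest stretch without a core site was on 2R from 160420 to 1861699 (1701280 bp) and held 31 reference peaks, 75 Abd-B peaks and 7 mutant peaks.

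Clustered sites were stronger and wider than lone ones. Their median percentile rank was 17.9 against 26.7 in the reference list, 11.1 against 20.6 in Abd-B and 40.0 against 52.1 in the mutant list. An Abd-B peak shared by several clustered sites entered the clustered median once for each of them. The median width was 806 bp against 686 bp in the reference list and 358 bp against 290 bp in the mutant list. When all reference peaks were grouped by gaps of at most 10 kb, the core share was 26.1% (interval 23.6 to 28.8) for lone peaks and 42.1% (37.5 to 46.9) in groups of 8 or more. Among peaks of the higher-scoring 50% it was 43.0% and 61.4% at these ends, and among the lower-scoring 50% it was 11.1% and 13.6%, with the lowest value, 9.32%, in groups of 5 to 7.

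**Figure D4:**
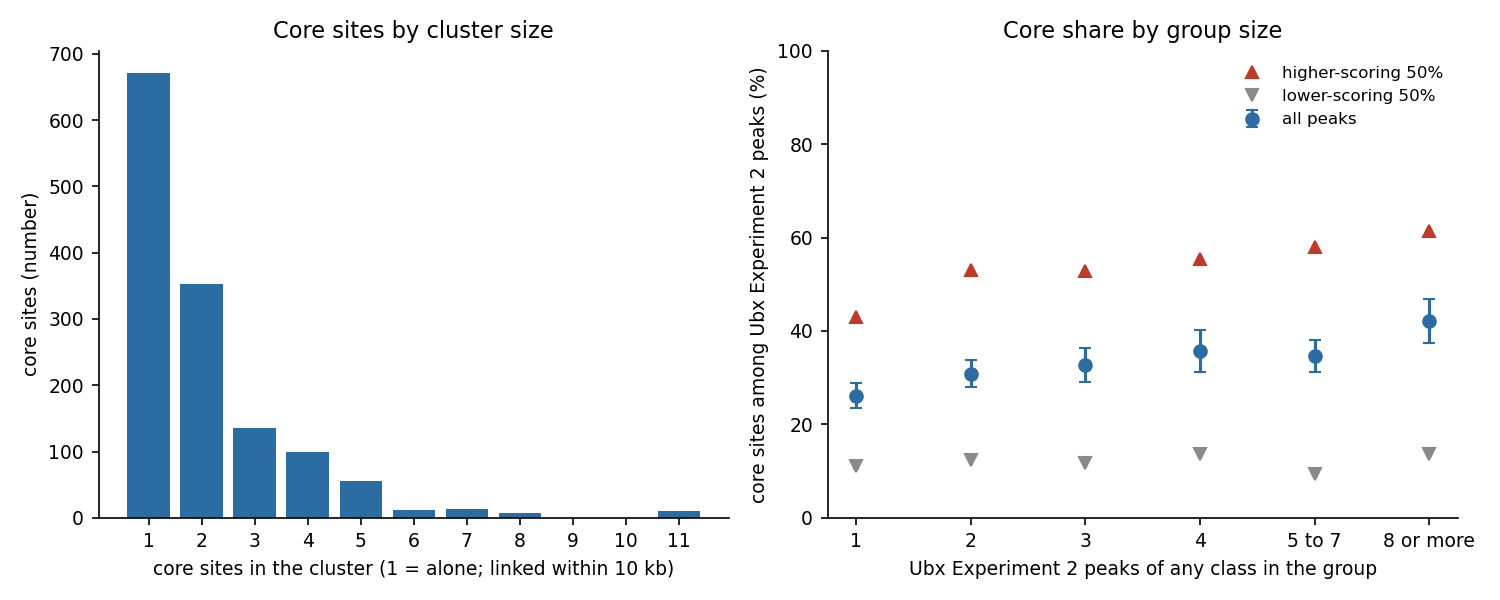
Number of core sites by the size of the cluster they belong to, linked by gaps of at most 10 kb (left), and percentage of reference peaks that are core by the number of reference peaks of any class in the group (right). Blue points carry Wilson 95% intervals, and red and grey triangles are the higher- and lower-scoring 50% of the reference list. The share rose from 26.1% for lone peaks to 42.1% in groups of 8 or more, while among the lower-scoring peaks it lay between 9.32% and 13.7% with no steady order.

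The largest cluster held 11 core sites in 39866 bp, on 3R from 12047238 to 12087103, among 14 reference peaks. It contains the leading site of the reference list, the fifth of the 11 along the chromosome. In their order along the chromosome, the 11 sites had reference scores of 33.1, 107, 109, 60.1, 359, 84.6, 183, 128, 174, 48.9 and 65.9. The mutant scores in the same order were 27.0, 16.3, 30.8, 17.4, 167, 52.3, 63.1, 24.4, 121, 21.4 and 54.9. The fifth and ninth sites were highest in the mutant list (ranks 6 and 13), and the second was lowest (rank 1553). Sites 2, 3 and 4 of this order shared 1 Abd-B peak of 5166 bp and 1 Ubx+Hth peak of 4288 bp, while the mutant and both Ubx lists had separate peaks at each. All 13 mutant peaks over the cluster were partners of core sites, as were 10 of 12 Abd-B peaks and 9 of 13 Ubx+Hth peaks. The next largest, on 3L from 8655151 to 8698624, held 8 core sites.

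**Figure D5:**
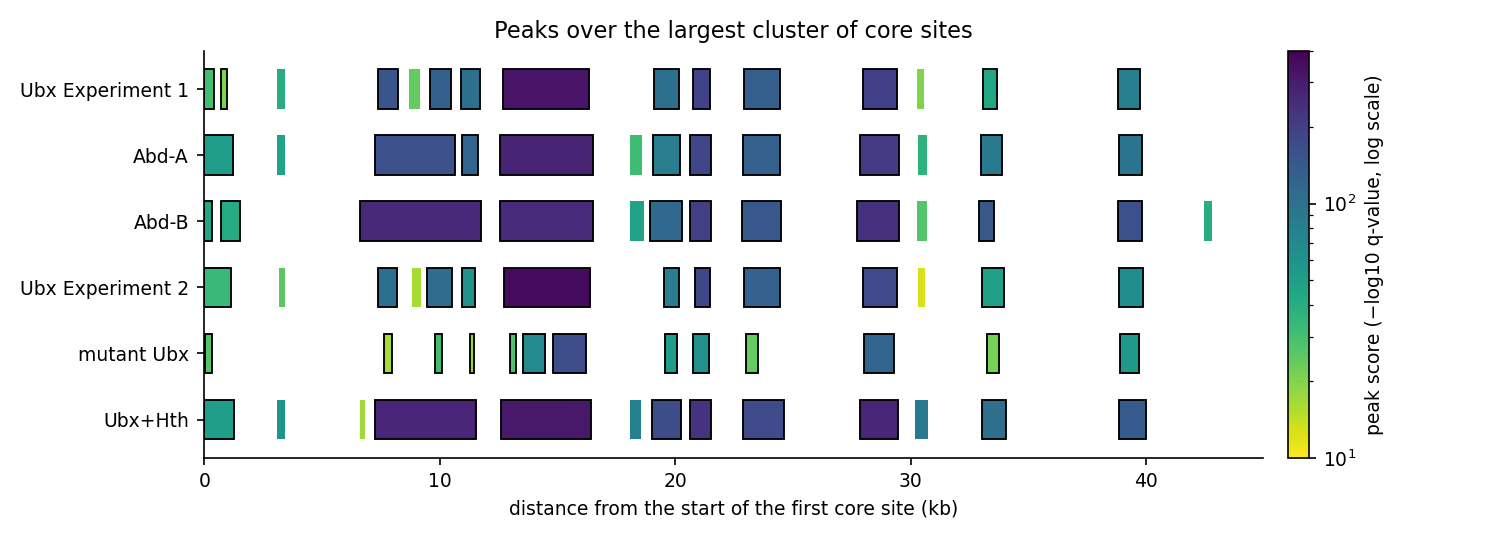
Peaks of the 6 stringent lists over the largest cluster of core sites, drawn to scale against the distance in kb from the start of its first core site. Colour gives the score on a log scale, and outlined blocks are core sites or their partners. One Abd-B peak and one Ubx+Hth peak cover 3 core sites on the left, and a mutant peak lies at each of the 11 core sites.

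The edge of the rule was thin in overlap and broad in score. The members just inside the 5% minimum were on X from 1129139 to 1129785, which overlapped its mutant partner by 5.10%, and on 3L from 4627123 to 4627352, with 5.46% for Abd-B. Just outside were a peak on 2L from 13203825 to 13204060, with 4.94% for Abd-B, and one on 2R from 7779562 to 7780517, with 4.71% for mutant Ubx. In all, 6 reference peaks overlapped every list by 1 bp or more but not by 5%. By score, 350 core sites (25.8%) had a mutant score under 20, and the lowest was 10.2, where the stringent lists begin at about 10. Of the 2120 peaks lacking only a mutant partner, 1782 (84.1%) had one in the mutant list called at a q-value of 1e-2, and 338 had none. The scores of those relaxed peaks had a median of 10.6, already past the stringent threshold, and reached 58.6, although these sites had no stringent mutant partner. A score of 8 or more was found at 1249 of these sites, a count without an upper limit on the score. The highest score, 58.6, is also the stringent mutant score of a core site on 2L. A relaxed peak can thus carry a score that belongs to a neighbouring site. How many of these sites lay just under the threshold was therefore not tested. With relaxed partner lists, 3540 reference peaks would have been core.

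The strongest peaks that missed a single list were of different kinds. The highest reference peak lacking only a mutant partner was on 3R from 25926218 to 25926763, with a score of 146 and rank 62 in the reference list, ranks of 153 in Ubx of Experiment 1, 159 in Abd-A, 769 in Abd-B and 504 in Ubx+Hth, and a relaxed mutant peak with a score of 5.53. The highest lacking only Ubx of Experiment 1 was on X from 3313473 to 3314825. It had rank 41 in the reference list and rank 20 in mutant Ubx, but 1713 in Abd-A and 5431 in Abd-B. Those lacking only Abd-A (3R from 4770647 to 4770945, rank 2029.5) or only Abd-B (2R from 8815836 to 8816413, rank 1499) were weaker in the reference list. The relaxed list of the missed profile held a peak at each of these places. Its score was 36.4 in Ubx of Experiment 1, 32.1 in Abd-A and 62.1 in Abd-B. Those scores are past the stringent threshold, although no stringent peak of the missed list overlapped the reference peak. A release 5 gene annotation and the genome sequence were not used here, so these positions carry no gene names or sequences.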

How the data were processed

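ChIP-Seq peak lists of 6 conditions were analysed, from 13 samples that include 2 of input. According to the submitters' processing notes and the methods of the study, the authors mapped paired reads uniquely to BDGP release 5 with Bowtie 1.0.1, made BAM files with SAMtools 0.1.19, combined replicates, removed reads over exons of the transfected genes with bedtools 2.19.1 and called peaks with MACS2 2.1.0.20140616 against the input of Experiment 1. Peaks over those exons may thus be lost. The deposited score is −log10 of the q-value; positions are 1-based here. Lists at a q-value of 1e-10 were used, and those at 1e-2 as an alternative.

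Overlaps (at least 5% of each peak) were computed with python 3.11.15, numpy 2.4.6 and pandas 2.3.3 and tested on simulated data and against bedtools. Where a site had several partners, the highest score gave its rank and the greatest width its width. Intervals came from scipy 1.17.1 and figures from matplotlib 3.10.9. Depth cannot be read from the lists, and its effect on which weak sites were called was not tested. The sites named were those with the best worst rank, the highest score in each list, the largest difference in standing between mutant and unmutated Ubx, the greatest and smallest width, the largest cluster, the threshold, and the highest peaks lacking 1 list; core_0012 and the chromosome 4 sites were chosen after their values were seen. Members, lists and comparisons were chosen with earlier results of these data known. Sequence features and homeodomains were planned but not analysed here.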

Additional observations from a re-analysis of the deposited data

How the results depend on the processing

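Of 68 alternative values, 46 kept within 1.5 times the count or within the interval of the main value and 22 did not. All these quantities are positive, so no sign could change. Some of the 46 could not move, such as the rank and width in the reference list under another choice of partner. The number of core sites (1358) became 248 with 50% reciprocal overlap, 3540 with partners in the relaxed lists, 4916 with relaxed lists throughout, 548 with all lists cut to the shortest and 3478 without the mutant list. Counted from the other lists it ran from 1263 to 1455, and without any 1 of the other 4 partner lists from 1358 to 1387. The 50% overlap also gave core shares of 21.4% on 3R, 0.806% on chromosome 4 and 25% on X, over its 248 sites. With partners in the relaxed lists the shares were 19.9% on X and 0.593% on chromosome 4. That core holds most of the reference list, so its shares lie close to those of the list. The 50% overlap gave median percentile ranks of 18.0 in Abd-A, 24.3 in Abd-B, 19.0 in the reference list, 36.9 in mutant Ubx and 16.0 in Ubx+Hth. The median widths were then 642.5 bp in Ubx of Experiment 1, 734 bp in Abd-A, 827 bp in Abd-B, 602.5 bp in the reference list, 437 bp in mutant Ubx and 754 bp in Ubx+Hth. It keeps only pairs of similar width, by its construction. The weakest in place of the strongest partner moved the mutant percentile rank to 51.3. Clusters linked within 5 kb held 40.5% of core sites and those within 20 kb 63.3%. No paired analysis was possible because each list was called on combined replicates, and no replicate could be left out.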

Other observations

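The highest peaks of some lists were not core. The 5 highest-scoring mutant Ubx peaks, with scores from 173 to 379, had no stringent partner in any list of Experiment 1, while all 5 had a Ubx+Hth partner and 4 had a partner in the Ubx list of Experiment 2. The first of them, on 2L from 21424918 to 21425294, overlapped the peak that ranked 2 in the reference list (score 343). The lists of Experiment 2 came from 100 bp reads and were called against the input of Experiment 1, with 36 bp reads. Experiment, read length and unmatched input cannot be told apart at these peaks. The highest Ubx+Hth peak, on 3R from 6212592 to 6213130 (score 523), had a partner in 3 other lists. The highest non-core peak of Ubx of Experiment 1 and that of Abd-A lay at 1 place on 3L, from 11700918 to 11701587 in the Ubx list, and ranked 28 and 26.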
